A study of Mus musculus with 19 samples.

Results

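Neurofilaments are the intermediate filaments of nerve cells. They are copolymers in which the light subunit (Nefl) forms the core and the medium (Nefm) and heavy (Nefh) subunits carry long, phosphorylated tails, and alpha-internexin (Ina) joins the polymer, often early in neuronal development. Stathmins bind tubulin and favour the disassembly of microtubules: Stmn1 is soluble and abundant in dividing cells, whereas Stmn2, Stmn3 and Stmn4 are membrane-anchored relatives known mainly from neurons.

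These 8 genes and A230070E04Rik, an entry that overlaps Nefm, were described in mouse embryonic stem cells left to differentiate after knockdown of a long non-coding RNA (lncRNA) or a gene by short hairpin RNA (shRNA). The members were the 9 entries with these names among the 38424 entries of the deposited expression table. They were picked because Nefl, Nefm, Stmn2 and Stmn4 were higher in several of the knockdowns, so every knockdown value of a member below is a description and carries no test. That choice also used the control levels of these 4 genes and of the entry that overlaps Nefm. In the contrast between control libraries of the 2 cultures these 5 members are therefore described too, and a test is given for Ina, Nefh, Stmn1 and Stmn3 only.

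There were 19 libraries of poly(A) RNA. In the retinoic acid culture, cells of the line 46c were kept for 4 days in N2B27 medium with 5 nM retinoic acid, with 2 shNr2f1as libraries, 1 shSox21os library, 2 shPou3f3os libraries and 2 libraries of a control hairpin. In the other culture, cells of strain 129S4/SvJae were differentiated in serum without leukemia inhibitory factor (LIF). At day 4 these were 2 shEvx1as libraries and 1 control of the line CJ7, and 2 shEVX1 libraries and 1 control of the line CJ9. The line CJ9 also gave 2 shFendrr libraries and 2 controls at day 5, and 1 shLhx1os library and 1 control at day 6. Nothing in the labels says whether replicates were separate cultures, so the spread between them may be technical. Cell line, medium, retinoic acid and, in part, day differ together between the 2 cultures and cannot be told apart. In bulk RNA, fewer cells of a type and less RNA per cell cannot be told apart either.

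Values are FPKM, which divide a gene's fragments by its transcript length and by the library's mapped fragments, so that levels of different genes can be compared per length. Summed FPKM per library ran between 559050 and 655315, and 12255 to 12825 entries reached 1 FPKM. Read totals are not given in the table, and the absolute depth behind each value is therefore unknown. Depth relative to retinoic acid control 1, estimated from the most frequent ratio of values under 0.05 FPKM, ran between 0.865 and 1.189. Of the targeted transcripts, Fendrr and Evx1 had entries under those names. Fendrr was at 0.36 and 0.08 FPKM in the shFendrr libraries, against 1.10 and 1.49 FPKM in their controls, and Evx1 was at 30.2 and 37.1 FPKM in the shEVX1 libraries, against 53.9 FPKM in their control. No 2 libraries held identical values.

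On the positions of the table, which are those of mouse build mm9, 4 of the 9 members lay on chromosome 14. Nefl spanned chr14:68701941-68705794 and Nefm chr14:68737602-68743061, with 31807 bp between them. A230070E04Rik (chr14:68741809-68749428) overlapped Nefm by 1253 bp. Because the sources used here do not say whether counting used the strand, reads of Nefm and A230070E04Rik may not be separated. Stmn4 (chr14:66963212-66980517) lay 1721 kb from Nefl. Nefh was at chr11:4838759-4848067, Ina at chr19:47089188-47098836, Stmn1 at chr4:134024235-134029758, Stmn2 at chr3:8509527-8561604 and Stmn3 at chr2:181041164-181049205.

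Promoter sequence was at hand for 2 of the 9 members, Ina and Stmn3, which are shown for that reason. They were also the neurofilament and the stathmin higher in the retinoic acid controls by the widest margin in the tested contrast described further down. The 250 bases before each annotated start are from RefSeq on GRCm38.p6, 5′ to 3′ on the gene's strand. Bases after the start were found in an annotated transcript of the gene for Stmn3 but not for Ina, so the Ina start is less sure. Capitals mark the E-box CANNTG, the site class of bHLH factors such as the neurogenins, and the GC box GGGCGG of Sp1-type factors, read on both strands. The Ina sequence is chr19:47014431-47014680, plus strand, and that of Stmn3 is chr2:181314501-181314750, minus strand.
Ina: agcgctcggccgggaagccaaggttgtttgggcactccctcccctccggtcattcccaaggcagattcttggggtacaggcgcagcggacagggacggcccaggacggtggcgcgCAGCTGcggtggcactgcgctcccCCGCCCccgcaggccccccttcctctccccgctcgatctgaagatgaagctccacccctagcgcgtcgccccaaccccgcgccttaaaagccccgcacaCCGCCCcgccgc
Stmn3: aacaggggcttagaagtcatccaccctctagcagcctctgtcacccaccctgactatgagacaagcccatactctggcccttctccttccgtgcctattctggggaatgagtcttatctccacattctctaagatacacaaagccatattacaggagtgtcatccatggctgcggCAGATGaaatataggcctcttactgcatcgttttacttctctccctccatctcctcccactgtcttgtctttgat

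The Ina sequence was 70.8% G and C and that of Stmn3 48.8%, beside a median of 52.4% over 32851 promoters of the same length. Each held 1 E-box, a motif found in 66.2% of those promoters. Ina held 2 GC boxes and Stmn3 held 0, with a GC box in 32.7% of all promoters. Neither window held the letters TATAAA (12.4% of all), CCAAT (33.8%) or TTCAGCACC, the left part of the binding motif of the repressor Rest (0.301%). These matches describe letters and not binding.

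The members were not silent in either culture, and all 9 passed the filter on low values. Stmn1 was at 175.4 to 388.2 FPKM over the 19 libraries, and was exceeded by Nefl alone, in the 3 CJ9 libraries of day 4. Nefl varied between 5.60 FPKM in the day-6 control and 308.4 FPKM in the CJ9 day-4 control, over a 55.1-fold range. Among the 12 LIF-withdrawal libraries Nefl had a median of 147.8 FPKM, and among the 7 retinoic acid libraries one of 10.5 FPKM. The 2 ranges overlapped through the day-6 control alone.

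**Figure D1:**
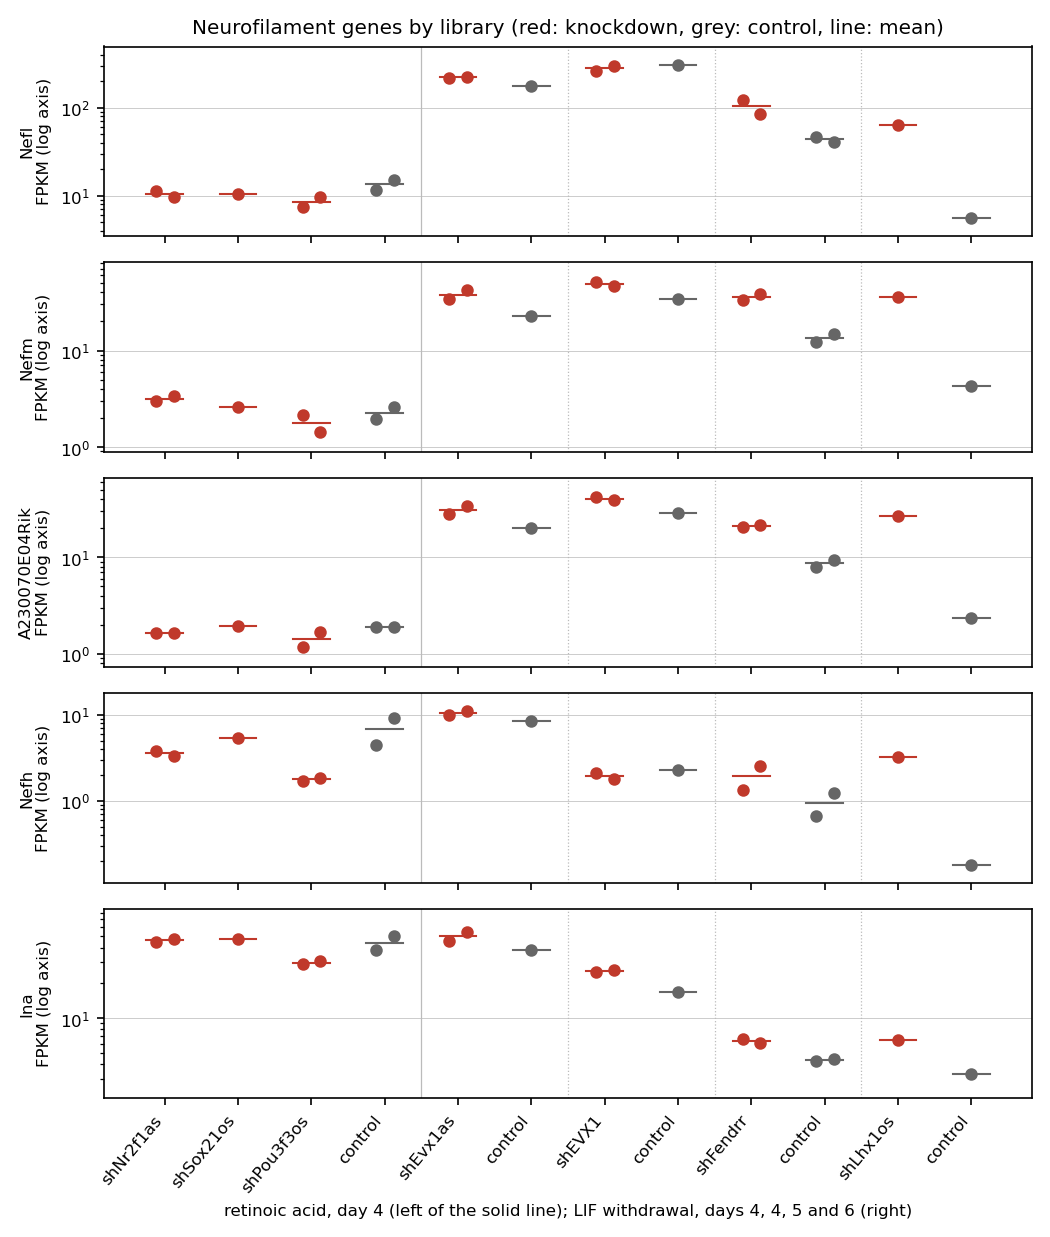
Level of Nefl, Nefm, A230070E04Rik, Nefh and Ina in each of 19 libraries (vertical axes, FPKM, log scale), with knockdown libraries in red, control libraries in grey and a line at each group's mean. Nefl, Nefm and A230070E04Rik sit low in the retinoic acid libraries and step down between the LIF-withdrawal controls of days 4, 5 and 6, while Ina sits between 28.9 and 50.7 FPKM in the retinoic acid libraries.

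The first comparison set the 2 retinoic acid controls beside the 5 LIF-withdrawal controls. The 3 entries at the Nefl and Nefm loci and Stmn2 were lower in the retinoic acid controls, and Ina, Nefh, Stmn1 and Stmn3 were higher, so that neither family lay on one side. The test was limma's moderated test on log2(FPKM + 1), adjusted over 14942 entries. A change of low values is understated on that scale, and each LIF-withdrawal control group had equal weight. The SE and p of this contrast come from the spread between replicates within groups. The spread among the LIF-withdrawal control groups does not enter them, so they do not measure how far controls differ between experiments.

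Nefl, the filament core, was at 11.7 and 15.2 FPKM in the retinoic acid controls, against 174.0 and 308.4 FPKM at day 4, 46.5 and 40.9 FPKM at day 5 and 5.60 FPKM at day 6 in the LIF-withdrawal controls. All LIF-withdrawal controls but the one of day 6 lay above both retinoic acid controls, so the groups overlapped. The log2 change was -2.14 ± 0.16 (SE). Set against the day-6 control alone, a comparison chosen after the values were seen, the change turned to 1.12, and against the day-4 controls it was -4.02.

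Nefm, the medium subunit, was at 1.94 and 2.61 FPKM in the retinoic acid controls, against 23.0, 33.8, 12.2, 14.9 and 4.31 FPKM in the LIF-withdrawal controls. The groups did not overlap, and the change was -2.29 ± 0.15 (SE), or -0.71 against the day-6 control alone. The overlapping entry A230070E04Rik was at 1.91 and 1.87 FPKM in the retinoic acid controls, against 20.2, 28.5, 7.99, 9.42 and 2.35 FPKM in the LIF-withdrawal controls. It lay below all 5 of them, with a log2 change of -2.05 ± 0.13, and against the day-6 control alone it differed by -0.21.

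Ina was at 38.0 and 50.7 FPKM in the retinoic acid controls, against 38.3, 16.9, 4.32, 4.41 and 3.29 FPKM in the LIF-withdrawal controls. The CJ7 day-4 control lay just above the lower of the retinoic acid controls, and the other LIF-withdrawal controls lay below both. The change was 1.99 ± 0.12 (adjusted p = 3.60e-07 by limma), with 0.76 against the day-4 controls alone and 3.39 against the day-6 control alone.

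Nefh, the heavy subunit, usually the last of the neurofilament subunits to appear in neurons, was at 4.43 and 9.26 FPKM in the retinoic acid controls. The LIF-withdrawal controls had 8.60 FPKM in CJ7 cells at day 4, and in CJ9 cells 2.28, 0.66, 1.22 and 0.18 FPKM. The groups overlapped through the CJ7 control. The change was 1.36 ± 0.24 (adjusted p = 0.000605 by limma), and against the day-4 controls alone it was 0.41 (adjusted p = 0.252 by limma). Without retinoic acid control 2 it was 0.90.

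Among the stathmins, Stmn3 had the widest gap. It was at 25.4 and 29.0 FPKM in the retinoic acid controls, against 3.09, 3.10, 2.88, 1.73 and 0.81 FPKM in the LIF-withdrawal controls. Both retinoic acid controls lay far above all 5 others, and the change was 3.16 ± 0.23 (adjusted p = 1.44e-06 by limma). Stmn1 was at 363 and 382 FPKM in the retinoic acid controls, against 261.5, 178.1, 220.5, 203.1 and 191.2 FPKM in the LIF-withdrawal controls. Here too no value overlapped, and the change was 0.84 ± 0.13 (adjusted p = 0.000221 by limma).

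Stmn2, a stathmin of growing axons, went the other way. It was at 42.0 and 34.3 FPKM in the retinoic acid controls, against 106.7, 140.3, 129.4, 128.1 and 58.9 FPKM in the LIF-withdrawal controls. Every LIF-withdrawal control lay above both retinoic acid controls, and the change was -1.42 ± 0.21 (SE), or -0.62 against the day-6 control alone. The low Stmn2 of these 2 retinoic acid controls is part of what chose the gene, and the 5 retinoic acid knockdown libraries, at 73.4 to 140.0 FPKM, overlapped the LIF-withdrawal controls. Stmn4 was at 4.33 and 1.59 FPKM in the retinoic acid controls, against 2.28, 2.34, 0.57, 2.82 and 0.25 FPKM in the LIF-withdrawal controls. The groups overlapped, and the change of 0.63 was smaller than its SE of 0.70.

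Of the 4 members tested here, 4 were called, all higher in the retinoic acid controls. The background was high, since 59.8% of the 14942 entries were called in this contrast, 30.3% of all entries higher and 29.5% lower. Over all 9 members the groups did not overlap for 5, beside 53.4% of all entries, and nothing is read from that count. The members' median log2 change was 0.63, beside 0.00 for all entries, and nothing is read from it either. The 2 retinoic acid controls themselves differed in pluripotency markers: the summed FPKM of Pou5f1, Nanog and Zfp42 was 60.2 in one and 376.1 in the other. The part of this difference in the members' values was not tested, but without either control the same 4 members were called.

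**Figure D2:**
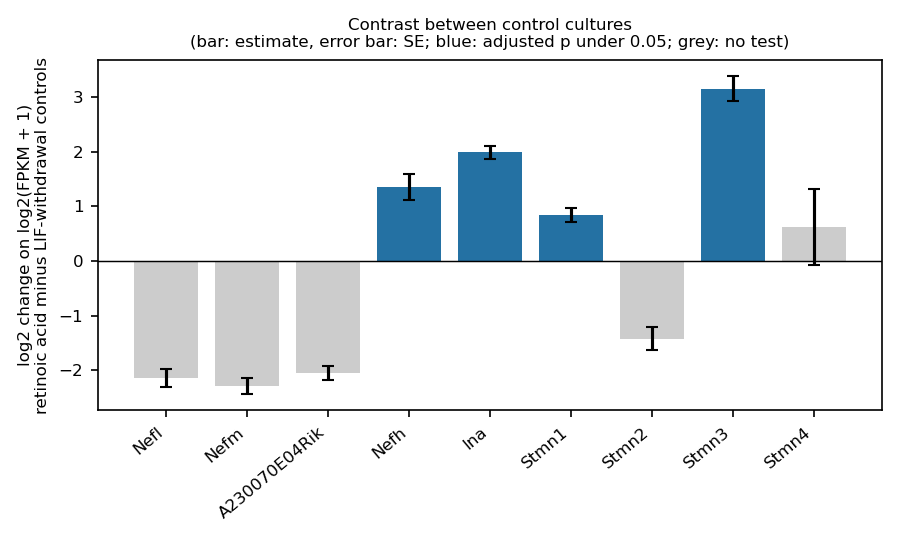
Log2 change on the log2(FPKM + 1) scale of each member, retinoic acid controls (n = 2) minus LIF-withdrawal controls (n = 5, 4 groups), as bars with standard errors. The 4 blue bars (Nefh, Ina, Stmn1 and Stmn3) passed the adjusted test and the 5 grey bars are a description; bars of the same family point both ways.

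Other genes of the same cell biology were read from fixed lists. Of 28 measured genes of the neuronal microtubule and growth cone list, 19 were called higher and 2 lower in the retinoic acid controls, with a median log2 change of 1.31. Those higher included the collapsin response mediators Dpysl4 (3.98 ± 0.14, adjusted p = 1.70e-08) and Crmp1 (3.83 ± 0.14, adjusted p = 2.06e-08), and Tubb3, the neuronal beta-tubulin (2.56 ± 0.21, adjusted p = 3.42e-06), by limma. Of 17 measured neuronal differentiation factors, 11 were higher and 0 lower (median 0.96), among them the proneural factor Neurog1 (1.43 ± 0.12, adjusted p = 4.50e-06 by limma). Neurog1 reached 1 FPKM in the retinoic acid controls alone and passed the filter through them, so nothing is read from its call. Of 17 measured synapse and vesicle genes, 11 were higher and 0 lower (median 0.75), led by the complexin Cplx2 (2.77 ± 0.19, adjusted p = 7.35e-07 by limma). Stmn3 and Ina were higher along with these lists, and Nefl, Nefm and Stmn2 were lower.

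Of 12 other intermediate filament genes measured, 4 were higher and 5 lower in the retinoic acid controls. The epithelial keratins Krt19 (-5.36 ± 0.28, adjusted p = 1.37e-07), Krt8 (-5.98 ± 0.35, adjusted p = 3.25e-07) and Krt18 (-4.19 ± 0.36, adjusted p = 4.49e-06) were lower by limma. Nes, the progenitor filament nestin, was higher (1.19 ± 0.28, adjusted p = 0.00365 by limma). Of 15 measured kinases and turnover factors of neurofilaments and stathmins, 5 were higher and 5 lower. The Cdk5 activator Cdk5r2 was higher (3.74 ± 0.17, adjusted p = 5.50e-08 by limma), as was Trim2, a ubiquitin ligase known to bind Nefl (2.03 ± 0.14, adjusted p = 8.11e-07 by limma). Pak1, a kinase upstream of stathmin phosphorylation, was lower (-1.06 ± 0.16, adjusted p = 0.000247 by limma).

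The proportions within each family were set side by side for the same controls, with no test, since both sums hold genes that the choice used. Nefl made up 64.7% and 56.2% of the summed FPKM of Nefl, Nefm and Nefh in the retinoic acid controls, and between 55.5% and 89.5% in the LIF-withdrawal controls. The means were 60.4% ± 5.97 (SD, n = 2) and 75.9% ± 13.3 (SD, n = 5), and the groups overlapped. Stmn1 made up 84.5% ± 1.42 (SD, n = 2) of the summed stathmin FPKM in the retinoic acid controls and 64.8% ± 8.31 (SD, n = 5) in the LIF-withdrawal controls. These groups did not overlap. In the 5 retinoic acid knockdown libraries the Stmn1 share was 66.7% to 76.1%, within the range of the LIF-withdrawal libraries.

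Over all libraries, Nefh held 14.2% to 34.2% of the 3 neurofilament subunits in the 7 retinoic acid libraries, and 0.523% to 4.19% in the 12 LIF-withdrawal libraries. Stmn3 held 5.62% to 9.50% of the stathmins in the retinoic acid libraries and 0.300% to 1.28% in the LIF-withdrawal libraries. Neither pair of ranges overlapped. The level of Nefh itself did overlap, at 1.71 to 9.26 FPKM in the retinoic acid libraries and 0.18 to 11.25 FPKM in the LIF-withdrawal libraries. Its highest values were those of shEvx1as, at 9.85 and 11.25 FPKM. The Nefh share also depends on Nefl, whose median was 10.5 FPKM in the retinoic acid libraries and 147.8 FPKM in the others. Stmn2 shares did overlap, at 7.66% to 27.0% in the retinoic acid libraries and 16.9% to 43.3% in the LIF-withdrawal libraries.

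**Figure D3:**
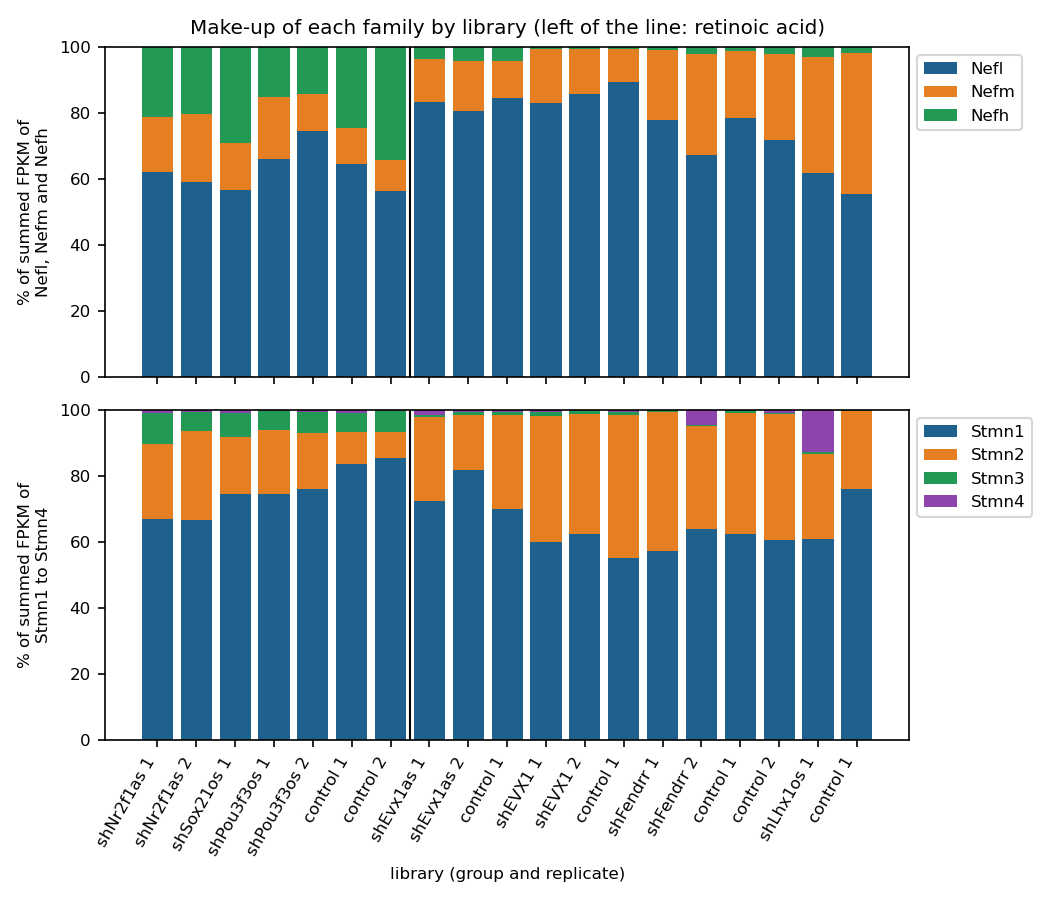
Share of each subunit in the summed FPKM of Nefl, Nefm and Nefh (upper panel) and of Stmn1 to Stmn4 (lower panel), as stacked bars in percent for 19 libraries, with retinoic acid libraries left of the line. The Nefh share is 14.2% or more in every retinoic acid library and 4.19% or less in every LIF-withdrawal library, though the FPKM of Nefh overlaps between the cultures. Stmn4 is visible chiefly in shLhx1os, at 12.8%.

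Within LIF withdrawal, the controls of 3 days gave an order of levels, though line, day and experiment change together and the day-6 control was a single library. Nefl was at 174.0 and 308.4 FPKM at day 4, 46.5 and 40.9 FPKM at day 5 and 5.60 FPKM at day 6. Nefm was at 23.0 and 33.8 FPKM at day 4, 12.2 and 14.9 FPKM at day 5 and 4.31 FPKM at day 6. Neither gene's values overlapped between neighbouring days. How many of all entries stepped in this way was not counted. The choice of both genes used control levels, so nothing is read from this order. The ratio of Nefl to Nefm was 7.58 and 9.13 at day 4, 3.82 and 2.74 at day 5 and 1.30 at day 6. Tubb3 was at 14.9 and 10.1 FPKM at day 4, 3.94 and 6.08 FPKM at day 5 and 4.02 FPKM at day 6, so its values of days 5 and 6 overlapped.

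In the shFendrr libraries, made after knockdown of a lncRNA next to Foxf1, the neurofilament genes were higher at day 5 while the differences of Stmn1 and Stmn2 were smaller than their SE. Nefl was at 121.7 and 85.1 FPKM in shFendrr, compared with 46.5 and 40.9 FPKM in the controls. Nefm was at 33.4 and 38.6 FPKM in shFendrr, compared with 12.2 and 14.9 FPKM in the controls, and A230070E04Rik at 20.6 and 21.4 FPKM in shFendrr, compared with 7.99 and 9.42 FPKM. None of these groups overlapped. The log2 changes were 1.20 ± 0.19 for Nefl, 1.35 ± 0.18 for Nefm and 1.18 ± 0.15 for A230070E04Rik (SE).

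Nefh was at 1.33 and 2.52 FPKM in shFendrr, compared with 0.66 and 1.22 FPKM in the controls, and Ina at 6.64 and 6.15 FPKM in shFendrr, compared with 4.32 and 4.41 FPKM. Both were higher in shFendrr without overlap, by smaller log2 changes of 0.58 ± 0.28 and 0.46 ± 0.14. Stmn1 and Stmn2 differed by -0.03 ± 0.15 and -0.05 ± 0.24. The Stmn2 mean hides a wide spread: the shFendrr libraries were at 164.7 and 94.4 FPKM, on either side of the controls at 129.4 and 128.1 FPKM. Stmn3 was at 2.35 and 0.91 FPKM in shFendrr, compared with 2.88 and 1.73 FPKM in the controls (-0.36 ± 0.27), and overlapped. Stmn4 was at 0.51 and 13.8 FPKM in shFendrr, compared with 0.57 and 2.82 FPKM in the controls. The shFendrr replicates thus lay on either side of both controls for Stmn4.

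By the threshold used for all entries, 3 members (Nefl, Nefm and A230070E04Rik) were past it in shFendrr, all higher, where 0.147% of entries were past it in either direction and 0.0535% higher. The groups did not overlap for 5 members, all higher, beside 30.1% of entries in either direction and 14.4% higher. The members were chosen on this contrast, so nothing is read from these shares. The counts rest on single libraries and on the shared fit: 0 entries were called higher without shFendrr replicate 2, without control replicate 1 or with log2(FPKM + 0.1), and 0 in all when the LIF-withdrawal culture was modelled alone. Over 11 alternatives the log2 change ran from 0.95 to 1.46 for Nefl, 1.21 to 1.49 for Nefm and 1.08 to 1.29 for A230070E04Rik. Filters, the variance prior, the replicate block and modelling the culture alone cannot alter this difference of group means, so they do not check it. The changes of Nefl, Stmn2, Stmn3 and Stmn4 moved past the replicate spread in 2 of 11, and that of Nefh in 1.

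Beside these values, the summed FPKM of 10 neuron markers was 10.7 and 13.4 in shFendrr, against 7.22 and 9.27 in the controls. Most of these sums was Tubb3, at 7.04 and 9.14 FPKM in shFendrr, against 3.94 and 6.08 FPKM. The sum of 4 neural crest and glia markers was 12.9 and 30.9 in shFendrr, against 9.16 and 15.3. The sum of 4 lateral mesoderm markers was 68.6 and 40.8 in shFendrr, against 150.2 and 170.6 in the controls. Their part in the neurofilament values was not tested. Of the neuronal microtubule and growth cone list (28 genes measured), the neuronal differentiation factors (17) and the synapse and vesicle genes (17), limma called 0 in shFendrr, where 1051 entries had an unadjusted p under 0.05. Only 0.147% of all entries were called there, so 0 calls in lists of this size say little. The medians of the 3 lists were 0.12, 0.04 and 0.09 on the log2 scale, beside 0.00 for all entries. The members' median of 0.58 is favoured by their choice on this contrast, so nothing is read from its distance to the lists.

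In the shLhx1os library, made from cells with a hairpin against a lncRNA named for Lhx1, 8 of the 9 members were higher than in its control at day 6. Each arm had 1 library, so there is no replicate check and no test. How many of all entries were higher was not counted. The median log2 change of all entries that passed the filter was -0.06. Nefl was at 63.7 FPKM in shLhx1os, compared with 5.60 FPKM in the control, an 11.4-fold difference. Nefm was at 35.9 FPKM in shLhx1os, compared with 4.31 FPKM, and A230070E04Rik at 26.6 FPKM, against 2.35 FPKM. The control had the lowest value of the 19 libraries for Nefl, Nefh, Ina, Stmn3 and Stmn4. The count and the folds thus rest on 1 control library that was extreme for these members. The shLhx1os value of Nefl lay above both day-5 controls.

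Stmn4 was at 36.9 FPKM in shLhx1os, compared with 0.25 FPKM in the control, a 149.9-fold difference from a low base. The next highest Stmn4 value of the 19 libraries was the 13.8 FPKM of shFendrr replicate 2. Stmn1 was at 175.4 FPKM in shLhx1os, compared with 191.2 FPKM in the control, and Stmn2 at 73.5 FPKM, against 58.9 FPKM. These 2 abundant stathmins differed by log2 changes of -0.12 and 0.32. Nefh was at 3.20 FPKM in shLhx1os, compared with 0.18 FPKM, and Ina at 6.49 FPKM, against 3.29 FPKM.

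Past a 2-fold difference, among entries with at least 5 FPKM in a library, were 4 members (Nefl, Nefm, A230070E04Rik and Stmn4), all higher in shLhx1os. Of all entries above that level 13.4% were past it, 5.78% higher and 7.67% lower, and the members were chosen on this contrast too. Of the 28 growth cone and microtubule genes, 7 were past the same fold higher and 1 lower. Dpysl3, a collapsin response mediator, was at 49.5 FPKM in shLhx1os, compared with 9.21 FPKM in the control. Gap43, a growth cone protein, was at 72.9 FPKM in shLhx1os, compared with 18.7 FPKM, and Tubb3 at 18.3 FPKM, against 4.02 FPKM. The kinesin Kif21b was lower, at 2.03 FPKM in shLhx1os, compared with 13.8 FPKM.

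Of 12 other intermediate filament genes measured, 8 were higher in shLhx1os and 2 were past the same fold, both higher. Nes was at 55.0 FPKM in shLhx1os, compared with 6.02 FPKM in the control, and Prph, the filament protein peripherin, at 27.3 FPKM, against 6.53 FPKM. The neuron markers summed to 21.5 FPKM in shLhx1os, compared with 6.81 FPKM in the control, with Dcx at most at 0.05 FPKM in every library. Most of both sums was Tubb3, at 18.3 FPKM, against 4.02 FPKM. The other markers went both ways: Neurod1 was at 0.65 FPKM in shLhx1os, against 0.08 FPKM, and Isl1 at 0.07 FPKM, against 1.15 FPKM. The lateral mesoderm markers summed to 17.6 FPKM in shLhx1os, compared with 236.1 FPKM in the control. Their part in the members' values was not tested.

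At day 4 of LIF withdrawal, shEvx1as and shEVX1 were each set beside 1 control. Nefm, its overlapping entry, Ina and Stmn1 were the members with both libraries of each knockdown above the control. Nefm was at 34.0 and 41.9 FPKM in shEvx1as, compared with 23.0 FPKM in its control (a log2 difference of 0.69 ± 0.22, SE). The shEVX1 libraries had 51.7 and 46.9 FPKM of Nefm, compared with 33.8 FPKM in their control (0.53 ± 0.22). Ina was at 46.0 and 54.3 FPKM in shEvx1as, compared with 38.3 FPKM, and at 24.8 and 26.0 FPKM in shEVX1, compared with 16.9 FPKM. In each pair both knockdown libraries lay above the single control.

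Nefl did not share that order. It was at 218.5 and 221.8 FPKM in shEvx1as, compared with 174.0 FPKM in the control, and at 262.7 and 293.4 FPKM in shEVX1, compared with 308.4 FPKM in the control. Both shEvx1as libraries lay above their control, and both shEVX1 libraries below theirs. Stmn2 was lower in both, at 99.8 and 80.1 FPKM in shEvx1as, compared with 106.7 FPKM, and at 125.9 and 110.3 FPKM in shEVX1, compared with 140.3 FPKM. The log2 change of Stmn2 was -0.25 in each knockdown, less in size than its SE of 0.30. Nefh (0.26 and -0.16) and Stmn4 (0.67 and -0.40) were higher in shEvx1as and lower in shEVX1. Stmn3 changed by 0.01 and 0.18. Each of these changes was also smaller than its SE.

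No member was past the adjusted threshold by limma in shEvx1as or in shEVX1, where 0.00669% of entries were past it in each and 654 and 496 entries had an unadjusted p under 0.05. The groups did not overlap for 8 members in shEvx1as, beside 70.8% of entries, and for 9 in shEVX1, beside 73.2%. The neuron markers summed to 28.7 and 38.0 FPKM in shEvx1as, compared with 20.5 FPKM in the control. Most of these sums was Tubb3, at 22.0 and 29.2 FPKM in shEvx1as, compared with 14.9 FPKM. The part of these markers in the members' values was not tested.

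In the retinoic acid culture the stathmin Stmn2 stood apart from the neurofilament genes in all 3 knockdowns, which share the same 2 controls. Stmn2 was at 97.2 and 140.0 FPKM in shNr2f1as, 73.4 FPKM in shSox21os and 87.4 and 76.5 FPKM in shPou3f3os, compared with 42.0 and 34.3 FPKM in the controls. All 5 knockdown libraries lay above both controls. The log2 changes were 1.59 ± 0.24 in shNr2f1as, 0.93 ± 0.30 in shSox21os and 1.09 ± 0.24 in shPou3f3os (SE). The other stathmins differed less: Stmn3 was at 25.2 to 40.6 FPKM in the knockdowns, against 25.4 and 29.0 FPKM, and Stmn1 at 286.0 to 346.1 FPKM, against 363 and 382 FPKM.

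**Figure D4:**
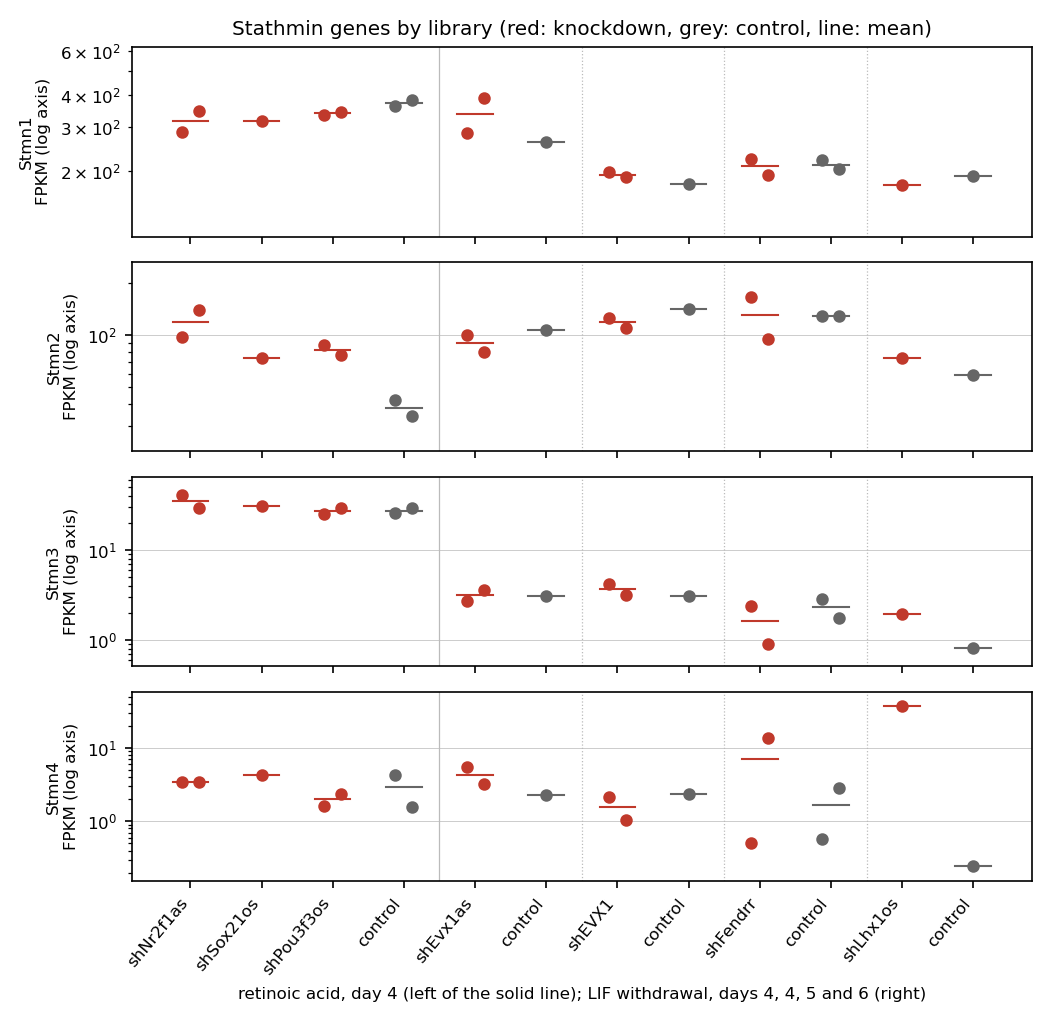
Level of Stmn1 to Stmn4 in each of 19 libraries (vertical axes, FPKM, log scale), with knockdown libraries in red, control libraries in grey and a line at each group's mean. Stmn2 is above both controls in all 5 knockdown libraries of the retinoic acid culture, and Stmn4 is at 36.9 FPKM in shLhx1os and at 13.8 FPKM in 1 of 2 shFendrr libraries.

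Nefl lay below its controls in these libraries, and Nefm lay above them in shNr2f1as alone. Nefl was at 11.2 and 9.64 FPKM in shNr2f1as, 10.5 FPKM in shSox21os and 7.50 and 9.62 FPKM in shPou3f3os, compared with 11.7 and 15.2 FPKM in the controls. Every knockdown library lay below both controls. Nefh was at 3.81 and 3.33 FPKM in shNr2f1as, 5.38 FPKM in shSox21os and 1.71 and 1.83 FPKM in shPou3f3os, compared with 4.43 and 9.26 FPKM in the controls. The shNr2f1as and shPou3f3os libraries lay below both controls and the shSox21os library lay between them.

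Ina was at 45.2 and 47.3 FPKM in shNr2f1as, 47.1 FPKM in shSox21os and 28.9 and 30.8 FPKM in shPou3f3os, compared with 38.0 and 50.7 FPKM in the controls. It was below both controls in shPou3f3os alone, by a log2 change of -0.54 ± 0.14 (SE). The change of Nefh in shPou3f3os was -1.43 ± 0.28. Nefm, at 1.44 to 3.36 FPKM, and Stmn4, at 1.63 to 4.25 FPKM, were low in all 5 knockdown libraries, against 1.94 and 2.61 FPKM for Nefm and 4.33 and 1.59 FPKM for Stmn4 in the controls.

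By the threshold used for all entries, Stmn2 was past it in shNr2f1as, higher (0.676% of entries in either direction, 0.422% higher), Stmn2 and Nefh in shPou3f3os (2.32%), and no member by limma in shSox21os (0.0669%, with 1706 entries at an unadjusted p under 0.05). The groups did not overlap for 7 members in shNr2f1as, 5 in shSox21os and 6 in shPou3f3os, beside 46.3%, 67.8% and 53.1% of entries. The members were chosen on these contrasts. When the retinoic acid libraries were modelled alone, 0 entries were called in shNr2f1as or shPou3f3os, and without shPou3f3os replicate 1 there were 0 calls in shPou3f3os. The pluripotency markers summed to 135.1 and 255.8 FPKM in shNr2f1as, 239.6 FPKM in shSox21os and 69.8 and 68.9 FPKM in shPou3f3os, compared with 60.2 and 376.1 FPKM in the controls. The neuron markers summed to 40.7 to 67.0 FPKM in the 5 knockdown libraries, against 61.0 and 62.6 FPKM. Most of these sums was Tubb3, at 29.3 to 51.4 FPKM in the knockdown libraries, against 48.6 and 49.7 FPKM. The 4 fibroblast markers summed to 11.9 and 34.4 FPKM in shNr2f1as, 16.2 FPKM in shSox21os and 12.9 and 13.1 FPKM in shPou3f3os, compared with 6.49 and 8.75 FPKM in the controls, without overlap. Of these, the collagen gene Col1a1 was at 6.64 to 22.3 FPKM in the 5 knockdown libraries, against 3.99 and 1.39 FPKM, while Col3a1 was at most at 0.10 FPKM and Postn at most at 0.03 FPKM. Another collagen gene, Col1a2, was called higher in shNr2f1as (1.41 ± 0.25, adjusted p = 0.0433 by limma) and in shPou3f3os (1.14 ± 0.25, adjusted p = 0.0440 by limma). Both Col1a2 calls ended with the retinoic acid libraries modelled alone (adjusted p = 0.191 and 0.185 by limma). The part of any of these markers in Stmn2 was not tested.

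Genes of the fixed lists that the choice of members did not use were tested in the same contrasts. Of all entries, 0.676% were called in shNr2f1as, 0.0669% in shSox21os and 2.32% in shPou3f3os. Of 17 neuronal differentiation factors, 1 fell in shNr2f1as and 0 rose by limma: the proneural factor Neurog1 (-1.27 ± 0.15, adjusted p = 0.0160). Neurog1 was at 0.24 and 0.06 FPKM in shNr2f1as and 0.47 FPKM in shSox21os, compared with 1.95 and 1.61 FPKM in the controls. The groups did not overlap. Of the 19 libraries, only these controls reached 1 FPKM of Neurog1. It passed the filter through the group where it was high, which favours a fall, so nothing is read from its calls.

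In shPou3f3os, Neurog1 fell too (-1.24 ± 0.15, adjusted p = 0.0126 by limma), with the same limit from the filter. Of 28 microtubule and growth cone genes 1 fell, the microtubule-associated protein Map1a (-0.66 ± 0.15, adjusted p = 0.0463 by limma). Of 15 kinases and turnover factors, 2 rose in shPou3f3os by limma and 0 fell: the neuronal Jun kinase Mapk10 (1.24 ± 0.23, adjusted p = 0.0302) and Pak1 (0.94 ± 0.19, adjusted p = 0.0408). Pak1 was at 12.7 and 12.9 FPKM in shPou3f3os, compared with 7.65 and 4.95 FPKM in the controls. It also lay above both of these shared controls in shNr2f1as (13.3 and 10.2 FPKM) and in shSox21os (12.5 FPKM). The prohormone chaperone gene Scg5 was the 1 synapse and vesicle gene called, and it rose (1.10 ± 0.20, adjusted p = 0.0283 by limma). Scg5 was also above both controls (3.14 and 2.07 FPKM) in shNr2f1as (4.82 and 4.86 FPKM) and shSox21os (4.09 FPKM). Map1a was below both (7.63 and 8.28 FPKM) in shNr2f1as (4.68 and 4.54 FPKM) and shSox21os (5.82 FPKM). Mapk10 was above both (1.33 and 0.46 FPKM) in shNr2f1as (1.86 and 1.69 FPKM) and between them in shSox21os (0.81 FPKM). Each of these calls in shNr2f1as and shPou3f3os ended when the retinoic acid libraries were modelled alone (adjusted p between 0.163 and 0.175 by limma). Over the settings tried, the call in shPou3f3os ended in 8 of 11 for Map1a, 6 of 11 for Scg5, 6 of 10 for Mapk10, 5 of 11 for Pak1 and 3 of 10 for Neurog1, and the call of Neurog1 in shNr2f1as ended in 1 of 10. In shSox21os, limma called 0 genes of the same lists.

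Rest, a repressor known for silencing Stmn2 and other neuronal genes outside neurons, was present throughout, at 9.90 to 15.4 FPKM in the retinoic acid libraries and 12.2 to 20.3 FPKM in the LIF-withdrawal libraries. It was at 18.8 and 13.7 FPKM in shFendrr, compared with 16.6 and 16.0 FPKM in the controls, and at 12.2 FPKM in shLhx1os, compared with 13.5 FPKM. Of 11 genes for Rest and its corepressors, limma called 0 in shEvx1as, shEVX1, shFendrr, shNr2f1as and shSox21os. Of all entries, 0.00669%, 0.00669%, 0.147%, 0.676% and 0.0669% were called there. With shares that small, 0 of 11 says nothing about these genes. In shPou3f3os 1 rose, the phosphatase Ctdsp2 (0.57 ± 0.13, adjusted p = 0.0463 by limma), a call that ended in 7 of 11 settings and with the culture modelled alone (adjusted p = 0.163 by limma). In shLhx1os, with no test, 2 were past a 2-fold difference, both lower: the corepressor Rcor2, at 22.7 FPKM in shLhx1os, compared with 53.0 FPKM in the control, and Ctdsp2, at 29.7 FPKM, against 63.7 FPKM. Between the controls, 4 of the 11 were called higher in the retinoic acid controls by limma and 2 lower. Of all entries 30.3% were called higher and 29.5% lower, so nothing is read from these counts.

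Neuronal genes accompanied the members unevenly. Nefl was at 0.188 to 0.307 of the Tubb3 FPKM in the retinoic acid libraries and at 1.40 to 38.5 times it in the LIF-withdrawal libraries. Of 10 neuron markers, 7 reached 1 FPKM in a retinoic acid library and 5 in a LIF-withdrawal library. Map2 was at 2.97 to 4.64 FPKM in the retinoic acid libraries and 1.17 to 1.76 FPKM in the LIF-withdrawal libraries. The RNA-binding protein gene Elavl3 was at 2.86 to 3.67 FPKM in the retinoic acid libraries and 0.15 to 2.20 FPKM in the LIF-withdrawal libraries. Isl1 and Syt1 had the opposite order, with medians of 0.057 and 0.261 FPKM in the retinoic acid libraries and 0.400 and 0.544 FPKM in the LIF-withdrawal libraries. Prph, which is not among these markers, had medians of 5.02 FPKM in the retinoic acid libraries and 9.61 FPKM in the LIF-withdrawal libraries.

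**Figure D5:**
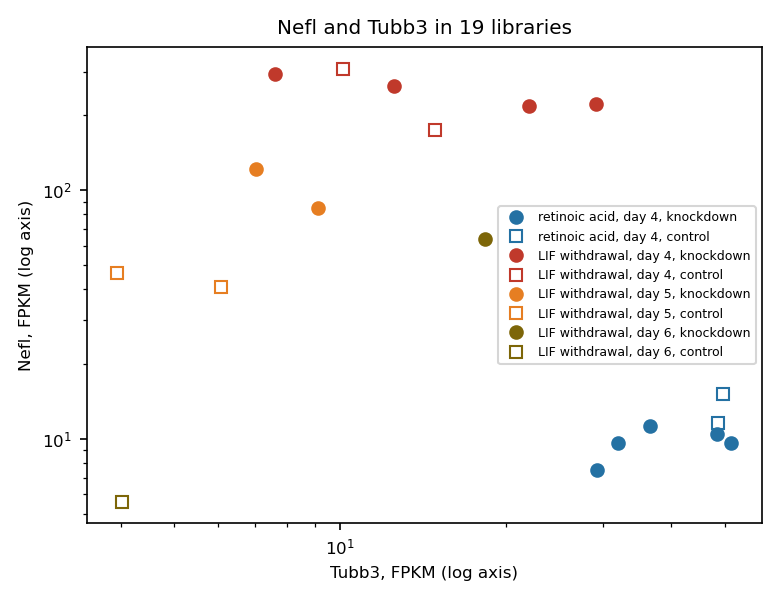
Nefl against Tubb3 in 19 libraries (both axes FPKM, log scale), with filled circles for knockdown and open squares for control libraries, coloured by culture and day. The retinoic acid libraries lie at Tubb3 of 29.3 FPKM or more with Nefl of 15.2 FPKM or less, and the day-4 LIF-withdrawal libraries at Tubb3 of 7.63 to 29.2 FPKM with Nefl of 174.0 FPKM or more.

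The members also differed in how they varied together, which is described here over libraries that share groups and therefore without a p. Over the 12 LIF-withdrawal libraries, log2(FPKM + 1) of Nefm followed its overlapping entry (Pearson r = 0.983) and Nefl (0.890), whereas Nefl and Stmn2 gave 0.497 and Nefm and Stmn1 0.145. Over the 7 retinoic acid libraries, Nefl and Nefh gave 0.900, Nefl and Nefm 0.203, and Nefl and Stmn2 -0.699. Nefm was low there and ranged only between 1.44 and 3.36 FPKM.

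Among 10334 named entries in the LIF-withdrawal libraries, the pattern most like that of Nefl was that of the sulfotransferase gene Sult4a1 (r = 0.984), then Cdk12 (0.958), Khdrbs3 (0.955), L1td1 (0.951) and Dusp6 (0.950). For Nefm it was Azin1 (0.938), Cnn1 (0.932), Cfl1 (0.912), Nes (0.908) and Myl9 (0.899). For Stmn2 it was Slc16a10 (0.931), Piezo2 (0.920), Rab31 (0.919), Ghr (0.913) and Alox15 (0.911). For Stmn4 it was Gsto1 (0.965), Anapc16 (0.962), Hyal2 (0.959), Dusp8 (0.958) and 9930013L23Rik (0.954). The 4 lists had no gene in common.

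Over the 7 retinoic acid libraries, with 10332 candidates, the closest were other genes. For Nefl they were 2410018M08Rik (0.986), Dhx30 (0.985), Uqcr10 (0.984), Akap1 (0.981) and Chpf (0.980), and for Nefm Jund (0.971), Btbd17 (0.969), Pcolce (0.966), Ppp1r13b (0.963) and Nfkbie (0.963). For Stmn2 they were Tapbp (0.994), Ier5 (0.993), Rhoc (0.990), Clk3 (0.989) and Gas2l3 (0.984), and for Stmn4 Pfn1 (0.947), AK178429 (0.942), Lars2 (0.919), Sf3b3 (0.917) and Me2 (0.915). With 7 points and that many candidates, high values of r are easily reached, and they say nothing of shared function.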

How the data were processed

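The authors deposited 1 table of FPKM values per gene or locus with 19 library columns. TopHat2 2.0.11, CASAVA and the builds mm9 and mm10 are named, per the submitters' processing notes. The quantifier, the annotation and any use of strand were not given in the sources used here. Libraries were poly(A)-selected and stranded, per the labels' protocols. FPKM scales each library by its own mapped fragments, so a few abundant genes can shift all others, and absolute read depth is not recoverable from it. The 14942 entries that reached 1 FPKM in 2 or more libraries were tested with limma 3.58.1 (R 4.3.3) on log2(FPKM + 1), with a mean for each of 12 groups (7 residual degrees of freedom), a mean-dependent variance prior and Benjamini-Hochberg adjusted p-values (threshold 0.05). The fit was tested on simulated data. Named list genes were taken from the up to 4 called with the smallest adjusted p (with 1 library an arm, the largest change) per list and comparison (Nes and Gap43 were added after their values were seen), and Tubb3, Map2, Dcx, Elavl3, Prph and Rest by level. Some genes of the neuronal differentiation and neural crest lists are not reported here and were left out of the counts and sums. Tests of the 2 family shares between controls were planned but are not given, because the choice of members used control values. Members and lists were chosen with earlier results of these data known.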

Additional observations from a re-analysis of the deposited data

How the results depend on the processing

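The 4 calls of Ina, Nefh, Stmn1 and Stmn3 between control libraries were kept under all 12 other settings that kept every LIF-withdrawal day or used day 5 alone, with 6829 to 9734 entries called. Against the day-6 control alone, chosen after seeing the data, the change of Nefl, given without a test, reversed to 1.12; against the day-4 controls alone the call of Nefh ended. Counts of calls in the knockdowns moved more, and the cause was not tested. With shEvx1as the count of 1 became 0 with log2(FPKM + 0.1), 213 with no filter, 0 with at least 5 FPKM, 2 with no trend, 3 with each culture modelled alone and 2 to 4 without one replicate. With shEVX1 the count of 1 became 0, 136 and 0 under the first 3 of these, 0 with each culture alone and 0 without either replicate. With shFendrr the count of 22 became 1, 87 and 6 under those 3, 0 with the culture alone and 2 to 231 without one replicate (231 without shFendrr replicate 1, 2 without shFendrr replicate 2). With shNr2f1as the count of 101 became 47 with no filter, 54 with no trend, 0 with the culture alone and 43 to 391 without one replicate. With shSox21os the count of 10 became 216 with no filter and 29 to 186 without one replicate. With shPou3f3os the count of 346 became 161 with no filter, 0 with the culture alone and 0 to 1240 without one replicate (1240 without control replicate 1); rescaling to equal totals gave 348 higher and 76 lower calls, beside 239 and 107. The labels do not say whether replicate numbers pair samples; deviations of same-numbered libraries correlated at 0.350 in the shFendrr experiment, 0.303 for shNr2f1as and -0.019 for shPou3f3os with their controls. A fit with the replicate block gave 0 calls in shEVX1, 331 in shNr2f1as, 813 in shPou3f3os, 30 in shFendrr, 13 in shSox21os, 1 in shEvx1as and 9416 between the controls. Without read totals, values near 1 FPKM have an unknown counting error.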
